A study of Mus musculus with 6 samples.

Results

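Zap70 and Ebf1 are lymphoid genes whose listed windows were read here in HoxA9-immortalised mouse bone marrow cells. The windows described are those of the authors' 3 comparison tables for which the nearest transcription start site belongs to either gene, each counted once by chromosome and start. This gave 3 windows of 2135 in all, 2 for Zap70 and 1 for Ebf1. The windows were chosen by the authors' own methylation differences and q-values, since a table lists a window only past limits on both, so these values are given as a description and not as a test.

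DNA methylation had been measured by reduced representation bisulfite sequencing (RRBS), which reads cytosines in CpG-rich MspI fragments. The 6 libraries, of strain C57BL6, fall into 3 groups of 2. IDH1mut cells carried pSF91-IDH1mut-IRES-GFP, a retroviral vector for mutant IDH1 named R132C in the tables. R-2HG cells carried the empty vector, and their host mice received a daily dose of 1 mg R-2HG over 4 weeks. R-2HG is the metabolite that the mutant enzyme makes. IDH1wt cells carried pSF91-IDH1wt-IRES-EGFP, for the wild-type enzyme. All groups shared the HoxA9 immortalisation and the irradiated recipient mice, and GFP-positive cells were sorted from bone marrow after 4 weeks. R-2HG cells differ from IDH1wt and from IDH1mut cells both in treatment and in vector, and these cannot be told apart. The labels do not tie the libraries to separate mice, so the spread between libraries may be technical.

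The T and B lineages arise from lymphoid progenitors, and the genes that build their antigen receptors are largely silent in myeloid cells. Zap70 encodes a cytoplasmic tyrosine kinase that docks on the phosphorylated chains of the T cell receptor and passes its signal on. Ebf1 encodes a transcription factor needed to specify and keep the B cell lineage. In mammals, CpG methylation over an active CpG-rich start site is usually low, while methylation within gene bodies has no single relation to expression.

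The tables give no sequence of the windows, so promoters of the 2 genes are shown, with the CpG dinucleotides, the bases whose methylation RRBS reads, in capitals. They are RefSeq promoters of build GRCm38.p6, from 250 bases before to 50 after a start, on the plus strand, and the authors' coordinates are in mm9, so no position was carried from one to the other. RefSeq holds 3 such promoters for Zap70 and 2 for Ebf1, and the table does not tie them to transcripts. The first and the last of Zap70 and both of Ebf1 are printed, since the spacing between them is of the size of the distances reported below.
Zap70 first start, chr1:36761548-36761847: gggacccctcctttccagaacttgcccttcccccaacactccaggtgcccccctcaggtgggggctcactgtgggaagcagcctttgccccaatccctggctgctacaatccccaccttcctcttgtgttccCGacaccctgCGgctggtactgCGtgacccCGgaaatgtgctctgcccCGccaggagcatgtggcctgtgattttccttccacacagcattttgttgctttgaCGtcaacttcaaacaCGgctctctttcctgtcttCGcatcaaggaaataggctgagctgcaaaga
Zap70 last start, chr1:36778734-36779033: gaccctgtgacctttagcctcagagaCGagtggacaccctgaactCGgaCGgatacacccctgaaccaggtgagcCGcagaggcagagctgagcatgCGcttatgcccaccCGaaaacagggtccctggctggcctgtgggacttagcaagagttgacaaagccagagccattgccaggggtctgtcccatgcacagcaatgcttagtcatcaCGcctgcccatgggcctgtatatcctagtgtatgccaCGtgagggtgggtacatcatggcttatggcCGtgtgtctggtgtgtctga
Ebf1 first start, chr11:44617850-44618149: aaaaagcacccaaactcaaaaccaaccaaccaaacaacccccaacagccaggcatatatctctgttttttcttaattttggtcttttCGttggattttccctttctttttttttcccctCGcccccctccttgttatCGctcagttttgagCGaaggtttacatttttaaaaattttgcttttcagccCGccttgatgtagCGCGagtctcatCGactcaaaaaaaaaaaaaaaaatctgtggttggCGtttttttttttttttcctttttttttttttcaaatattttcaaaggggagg
Ebf1 second start, chr11:44619978-44620277: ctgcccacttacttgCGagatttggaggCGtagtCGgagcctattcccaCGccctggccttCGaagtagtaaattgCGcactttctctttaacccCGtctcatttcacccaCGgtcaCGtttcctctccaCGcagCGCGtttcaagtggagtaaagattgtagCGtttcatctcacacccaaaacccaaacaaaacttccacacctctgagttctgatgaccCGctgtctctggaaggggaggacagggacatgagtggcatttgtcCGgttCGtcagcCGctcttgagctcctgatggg

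The 2 printed Zap70 promoters hold 8 and 9 CpGs. The first Ebf1 promoter has 9 CpGs in a sequence of 36.7% G and C, and the second has 17 at 53.0%. The median over all 32851 RefSeq promoters of this length was 7 CpGs (quartiles 3 and 20). CCGG, which reads the same on both strands and is cut by MspI, occurs 1 time in the first Zap70 promoter and 1 time in the second Ebf1 promoter. It is not in the last Zap70 promoter or the first Ebf1 promoter as printed. Of all these promoters 52.8% hold CCGG. None of this says whether the libraries covered these bases.

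Zap70 had higher methylation in IDH1mut than in IDH1wt cells, and higher methylation in R-2HG than in IDH1wt cells, in the same 2 windows. In the authors' deposited table for IDH1mut against IDH1wt, both windows had a difference of 33.5 percentage points (p = 5.04e-06, q = 2.76e-05). In the authors' deposited table for R-2HG against IDH1wt, both had 29.0 points once its sign was turned round (p = 2.14e-05, q = 0.000128). Both comparisons use the same IDH1wt libraries. Every difference is read as the first-named group minus the second, and the values do not tell this reading from one with all 3 tables turned round. For this reading the R-2HG against IDH1wt differences, which carry the opposite sign as deposited, are given turned round throughout. Which group is called higher therefore rests on an assumed direction. Group means and values per library are not analysed here, so neither the starting level at Zap70 nor a spread between libraries can be given.

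The Zap70 windows lie on mm9 chr1:36837501-36838000 and chr1:36837751-36838250. They begin 18797 and 19047 bp downstream of the start site of NM_009539, which is on the plus strand. This is outside the promoter of that transcript, taken as -2000 to 500 bp. Their distance from the other starts of Zap70 is not given. Exon or intron is not given, since no mm9 annotation was used here. The last of the RefSeq starts of Zap70 lies 17186 bases after the first in GRCm38.p6, a spacing set beside the mm9 distance and not converted to it. Of the listed windows of IDH1mut against IDH1wt, 31.8% lay between 500 bp and 50 kb downstream of their start site, and of those of R-2HG against IDH1wt, 31.2%.

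The 2 Zap70 windows overlap by 250 bp and carry the same difference, p and q in each table, so they are described here as 1 measurement. Such identical neighbours were common. Of the overlapping pairs of listed windows, 183 of 551 (33.2%) were identical in difference and p for IDH1mut against IDH1wt, and 100 of 274 (36.5%) for R-2HG against IDH1wt.

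In size, Zap70 was an ordinary member of the tables. Among the gained windows, 368 of 1035 (35.6%) had a larger difference than Zap70 for IDH1mut against IDH1wt. For R-2HG against IDH1wt, 268 of 510 (52.5%) had a larger one. The median gain was 30.6 points for IDH1mut and 29.4 points for R-2HG. Gains made up 69.3% of the windows listed for IDH1mut and 68.0% of those listed for R-2HG, so a gain at Zap70 is also the commoner direction of both tables.

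**Figure D1:**
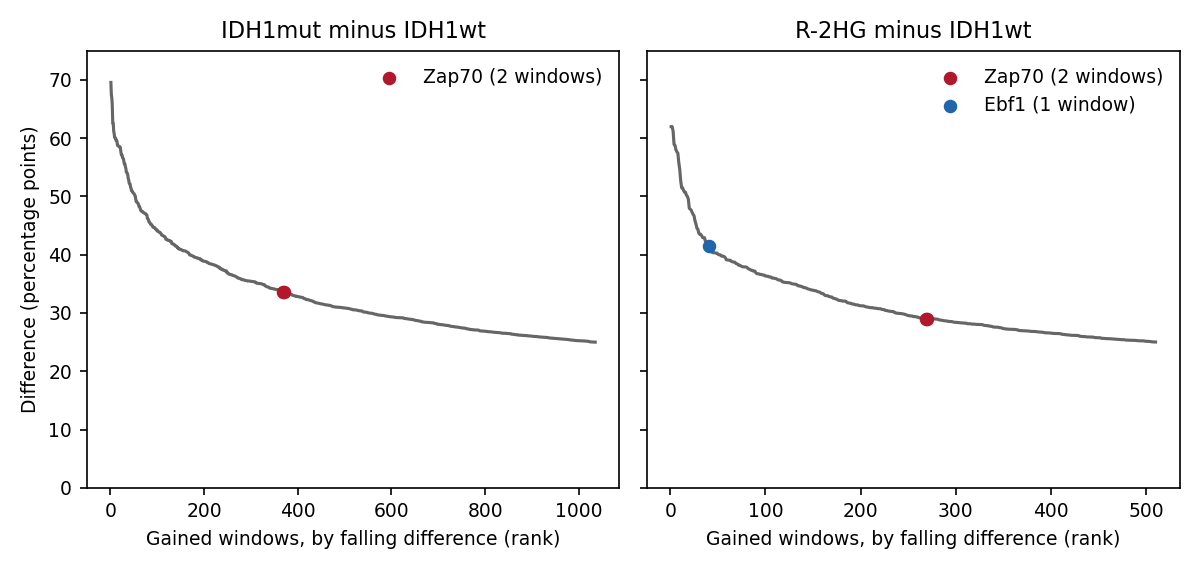
Gained windows of IDH1mut minus IDH1wt (left) and R-2HG minus IDH1wt (right), ranked on the x axis by their difference in percentage points on the y axis; the line joins all gained windows and the points are Zap70 and Ebf1. Zap70, at 33.5 points in IDH1mut and 29.0 points in R-2HG, sits in the flat middle of both curves, and Ebf1, at 41.6 points, on the steep part of the R-2HG curve.

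In its q, Zap70 stood near the weak end of both lists. A smaller q was listed for 1390 of 1493 windows (93.1%) for IDH1mut against IDH1wt and for 696 of 750 (92.8%) for R-2HG against IDH1wt. Of the 117 windows within 1 point of the size of the Zap70 difference in the IDH1mut table, its own 2 included, 110 had a smaller q and 85 had a q of 0. Among the 114 such windows for R-2HG against IDH1wt, 101 had a smaller q and 79 had a q of 0. The depth behind each window is unknown, and its part in these q-values was not tested.

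**Figure D2:**
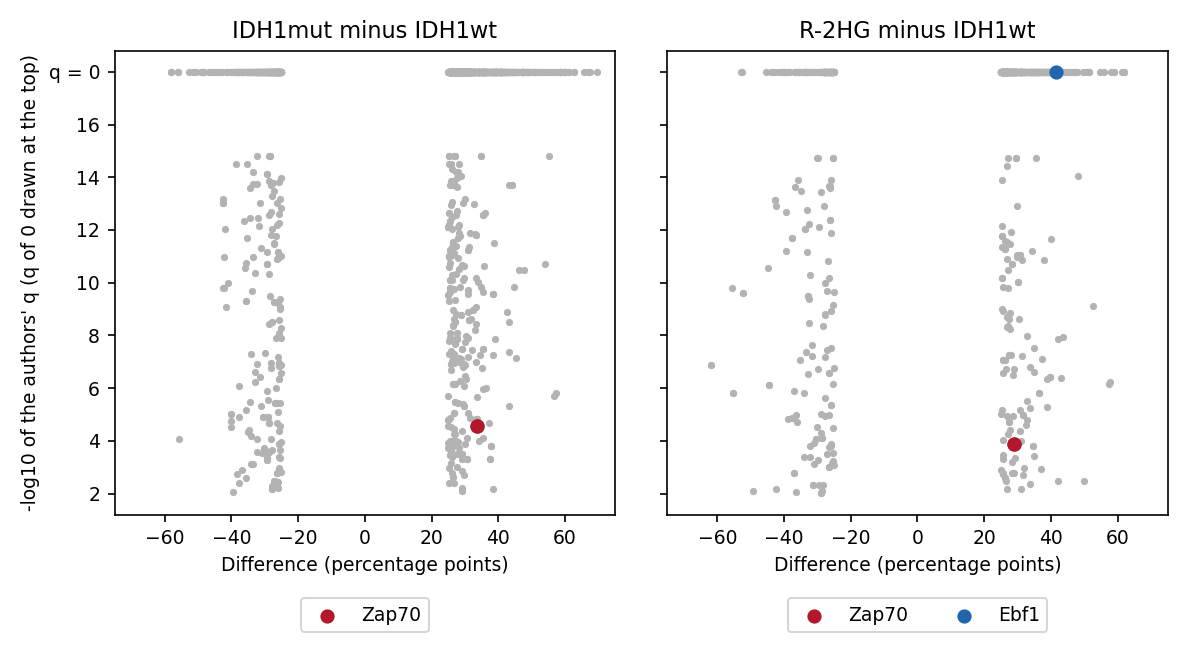
Each point is a listed window, with its difference in percentage points on the x axis and the -log10 of the authors' q on the y axis, for IDH1mut minus IDH1wt (left) and R-2HG minus IDH1wt (right); windows with a deposited q of 0 are drawn in a row at the top. Zap70, with q of 2.76e-05 and 0.000128, lies low in both panels, and Ebf1, with a q of 0, in the top row of the right panel.

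Zap70 was not listed for R-2HG against IDH1mut. Subtracting its 2 listed differences gives -4.49 points for R-2HG minus IDH1mut, a value under the 25 points that the smallest listed difference reaches. The interval of this value is unknown, so it does not show that the 2 groups were alike at Zap70.

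Zap70 was set beside the 383 windows of other genes listed for IDH1mut and R-2HG against IDH1wt and not between them. Those nearest to Zap70 in both differences lay on other chromosomes. Likeness was the Euclidean distance over the 2 differences, in percentage points, with the nearest window of each gene kept. All these windows were listed by the size of the same 2 differences, so closeness is a description and not a test. Gm12718 was nearest, at 0.269 points, with 33.8 points in IDH1mut and 29.2 points in R-2HG. L3mbtl1, Trip6, Sorcs1 and Cntn5 followed at 1.03, 1.09, 1.35 and 1.38 points. Only Trip6 of these was a promoter window, at -33 bp, and the windows of Sorcs1 and Cntn5 lay 483887 and -727977 bp from their start sites.

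Under the same reading, Ebf1 had higher methylation in R-2HG than in IDH1wt cells in 1 window. In the authors' deposited table for R-2HG against IDH1wt the difference was 41.6 points once its sign was turned round. Its p and q were 0 as deposited. Ebf1 was listed neither for IDH1mut against IDH1wt nor for R-2HG against IDH1mut, as was so for 290 of the 750 windows listed for R-2HG against IDH1wt (38.7%). Of the 510 gained windows for R-2HG, 40 (7.84%) had a larger difference than Ebf1. A p of 0 was deposited for 68.7% of the windows of that table, so it places Ebf1 with most of them.

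The Ebf1 window lies on mm9 chr11:44434501-44435000, beginning 2867 bp downstream of the start site of NM_007897, on the plus strand. It is outside the promoter of that transcript as taken here, and its distance from the other Ebf1 start is not given. The second RefSeq start of Ebf1 lies 2128 bases after the first in GRCm38.p6, again a spacing that was not converted to mm9. The overlapping windows 250 bp to either side were not listed, which was so for 238 of the 750 windows (31.7%).

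What the other tables leave possible at Ebf1 can be bounded. The differences R-2HG minus IDH1mut and IDH1mut minus IDH1wt must add up to 41.6 points. If the window was read in all groups and went unlisted in both other tables because of a difference under 25 points, each of those differences lay between 16.6 and 25 points. IDH1mut would then stand between R-2HG and IDH1wt. Coverage or a q above the limit may also keep a window off a table. Of the 290 windows listed for R-2HG against IDH1wt alone, 6 had a difference of 50 points or more, so that their 2 other differences cannot both be under 25 points. Whether Ebf1 differed between R-2HG and IDH1mut is therefore not known.

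No other gene had a listed window within 500 kb of a Zap70 or Ebf1 window in any of the 3 tables, which was so for 1106 of all 2135 windows (51.8%). The nearest listed windows around Zap70 belonged to Mir5103, 2.35 Mb before, and Npas2, 2.32 Mb after. Their differences for IDH1mut against IDH1wt were -37.9 and -30.1 points, opposite in sign to Zap70. Around Ebf1 they belonged to Fabp6, 0.99 Mb before, with -45.6 points, and Adam19, 1.40 Mb after, with 30.2 points. Both values are for IDH1mut against IDH1wt, where Ebf1 itself was not listed. In RefSeq order the protein-coding neighbours are 4933424G06Rik and Tmem131 for Zap70, and Rnf145 and Clint1 for Ebf1.

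Of 51 other T lineage genes, 3 were listed for IDH1mut against IDH1wt, all gains, beside Zap70. This is 5.88% of the list, against 3.14% of the 21900 protein-coding RefSeq symbols, a base that also holds genes that RRBS does not read. The listed windows of these 3 genes had a median of 32.7 points. For R-2HG against IDH1wt 1 of 51 (1.96%) was listed, a gain, against 1.64% of all symbols. For R-2HG against IDH1mut 1 of 51 (1.96%) was listed, a loss, against 1.40%, in a table with 35.5% gains. These shares rest on 1 to 3 genes, and nothing particular to the T lineage is read from them. The T lineage list shares Lef1, Rag1, Rag2 and Il7r with the B lineage list used below. Neither list is therefore limited to a single lineage, and their counts are not independent.

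Cd247 encodes the zeta chain of the T cell receptor complex, to whose phosphorylated motifs the Zap70 kinase binds. Its 2 overlapping windows gained 31.0 and 32.1 points in IDH1mut against IDH1wt, with a q of 0 in the authors' deposited table. They lay 52191 and 52441 bp downstream of the start site of NR_103716, a noncoding transcript under the Cd247 symbol. Cd247 was listed in that table alone, as were 857 of its 1493 windows (57.4%).

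Ptpn22 encodes a phosphatase that restrains T cell receptor signalling and acts on Zap70. Like Zap70 it was listed for IDH1mut and for R-2HG against IDH1wt, with 25.9 points (q = 0.000186) and 26.9 points (q = 1.19e-05) in the same window of the authors' deposited tables. The R-2HG value is again given with its sign turned round. That window begins 25538 bp downstream of the Ptpn22 start. Subtraction gives 1.03 points for R-2HG minus IDH1mut at Ptpn22, beside -4.49 points at Zap70.

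Gata3 encodes a transcription factor needed for T cell development. Unlike Zap70, it was listed for IDH1mut against IDH1wt and for R-2HG against IDH1mut, with q of 0 in every one of its 3 windows. At 1478 bp downstream of the start site the differences were 47.0 points for IDH1mut minus IDH1wt and -40.3 points for R-2HG minus IDH1mut. Subtraction gives 3.64, 6.71 and 14.8 points for R-2HG minus IDH1wt over the 3 windows, where Zap70 had 29.0 points listed. The interval of no such value is known, and the difference between the genes was not tested.

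Of 45 other B lineage genes, 1 (2.22%) was listed for IDH1mut against IDH1wt and none for R-2HG against IDH1wt or against IDH1mut. Of all symbols, 3.14%, 1.64% and 1.40% were listed in these tables, so counts this small are near the background. The listed gene was Tcf3, which encodes the E proteins E12 and E47 that act with Ebf1 early in B cell development. Its window gained 31.0 points in IDH1mut against IDH1wt (q = 1.88e-10) in the authors' deposited table and begins 1649 bp downstream of the Tcf3 start. The other Ebf family genes in the list, Ebf2, Ebf3 and Ebf4, had no listed window, nor did Pax5, which Ebf1 activates. Being unlisted does not say that a gene was covered.

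**Figure D3:**
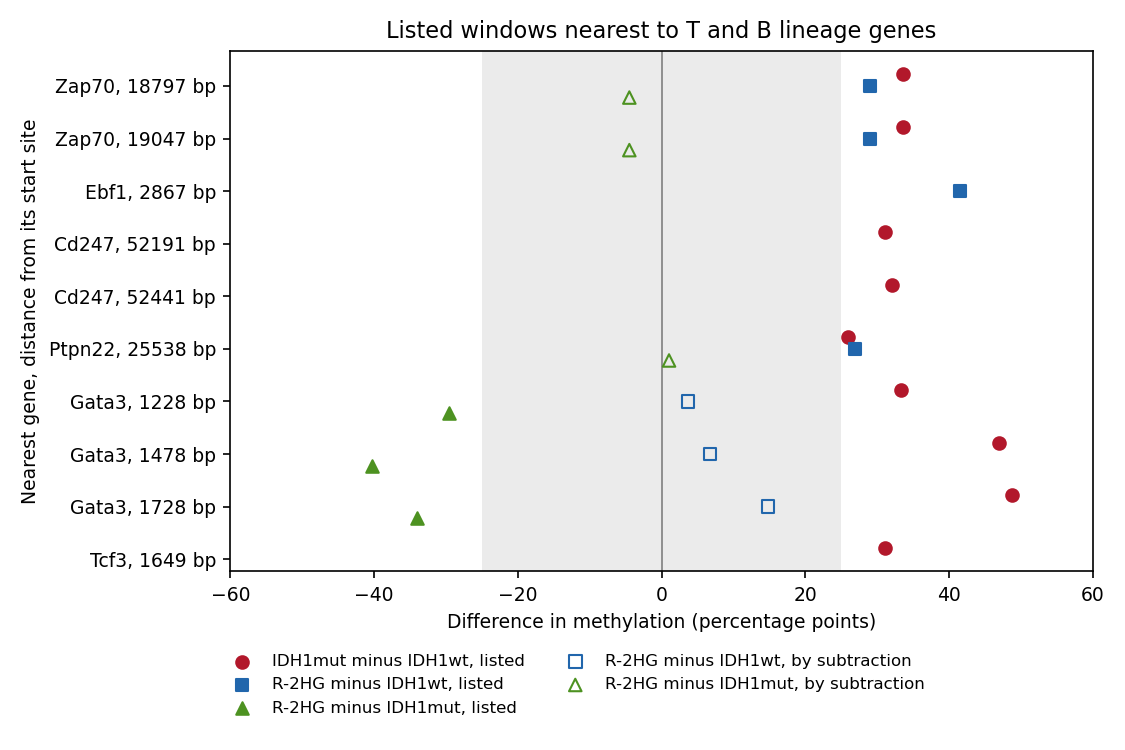
Differences in percentage points (x axis) at every listed window nearest to Zap70, Ebf1 and the listed T and B lineage genes, with the distance from the start site (y axis). Filled symbols are listed differences, open symbols were obtained by subtraction, and the grey band marks differences under 25 points, which the tables do not list. Zap70 and Ptpn22 show both IDH1mut and R-2HG above the band, Gata3 shows IDH1mut above it and R-2HG minus IDH1mut below it, and Ebf1 shows the R-2HG difference alone at 41.6 points.

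The labels call the cells sorted bone marrow cells and give no lineage. None of 16 myeloid marker genes, Mpo, Elane and Itgam among them, had a listed window in any table, which for so short a list is near the background of 3.14%, 1.64% and 1.40% of all symbols. Differences between groups cannot check which cells the sort held, and a change in the share of lymphoid cells cannot be told apart from a change within cells at Zap70 or Ebf1.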

How the data were processed

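RRBS was done on 6 libraries in 3 groups of 2. The submitters' processing notes name Trim Galore, BSMAP, methylKit 0.9.1 and mouse build mm9. Whether the test covers the spread between libraries, or how reads were filtered, is not given in the sources used here. Per the file headers, the authors deposited for each 500 bp window a signed methylation difference (a score in percentage points), its p-value and q-value, and the distance to the nearest start site. The smallest listed difference was 25.0 points and the largest q 0.00995, so the tables hold windows past a limit. Depth is unknown.

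Windows were counted once by chromosome and start. Of the 4 sign orders of the tables, 1 left a residual of 0 at the 3 windows in every table and no remaining difference of 25 points or more at the 705 windows in exactly 2, against 320 to 633 windows under the others. Under it the table of IDH1wt with R-2HG is turned round. Which way the whole set runs was taken from methylKit's habit of subtracting the control. With IDH1wt as the control, the table of IDH1wt with R-2HG does not follow that habit. The direction of the whole set is therefore an assumption. The sign order and the joining of windows were tested on simulated data. That simulation had no noise and held the sign of IDH1mut minus IDH1wt fixed, so it cannot test the direction of the whole set.

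No own test between groups could be made. Named were Zap70 and Ebf1, up to 15 listed members of each gene list, listed genes within 500 kb, and the 5 genes nearest in pattern to a window listed in at least 2 tables; the genes nearest on either side were named after their values were seen. Members and lists were chosen with earlier results of these data known. All gene symbols of the lists, and both transcripts, matched the RefSeq table (GRCm38.p6). Python 3.11.15 and pandas 2.3.3 were used.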

Additional observations from a re-analysis of the deposited data

How the results depend on the processing

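Of 72 recomputed values, 56 were unchanged. Many of these were counts of 0, which a stricter limit or joining cannot change. A median over 1 window, or over 2 windows of equal value, cannot change either. The tally is therefore no measure of robustness. Under the opposite sign reading the Zap70 difference would be -33.5 points in IDH1mut and -29.0 points in R-2HG against IDH1wt, and the Ebf1 difference -41.6 points in R-2HG against IDH1wt; that IDH1mut and R-2HG have the same sign at Zap70 holds under both readings. With differences of at least 30 points only, the R-2HG against IDH1wt table held 0 Zap70 windows and 0 of the T lineage genes, and 2 of the 3 T lineage genes were left for IDH1mut against IDH1wt. Joining windows within 1000 bp left 1 Zap70 region in each of its 2 tables. Counting promoter windows only, by the deposited distance, 0 Zap70 and 0 Ebf1 windows and 0 T or B lineage genes remained in any table. Distances to the other starts of Zap70 and Ebf1 are not given, so these counts do not cover their other promoters. A q of at most 0.001, counting every deposited row, a limit of 50 kb, and the median over a gene's windows left every Zap70 and Ebf1 value as it was; the 50 kb limit took Cd247 from the T lineage genes of IDH1mut against IDH1wt and left 2. No library could be left out and no depth limit given, since the tables hold no values per library. No paired analysis was possible because the result comes from no test of values per library.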
